A study of Rattus norvegicus with 12 samples.

Results

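Expression of 9 genes of the transforming growth factor beta (TGF-beta) and activin system was followed in rat skull-roof bone (calvaria) after laser or bur surgery. They are the ligand genes Tgfb1, Tgfb2, Tgfb3 and Inhba, the receptor genes Tgfbr1 and Tgfbr2, the latent TGF-beta binding protein genes Ltbp1 and Ltbp2, and the activin inhibitor gene Fst. They were found by gene name among the array's non-control spots. All 9 were among the 22718 genes measured, and they carried 16 of the 45598 probes on the array. The probe used for each of the 9 was well above background on all 12 arrays.

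The study compared 3 groups of calvarial bone, with 4 one-colour arrays each, taken 72 h after surgery from rats aged 10 weeks. In the laser group a defect of 8 by 3 mm was made with 3 strokes of an Er:YAG laser, whose infrared pulses ablate hard tissue, at 20 Hz and an output of 127 mJ per pulse. In the bur group a defect of that size was drilled with a rotating bur. Control bone was not ablated. The treatment protocol has the periosteum of controls removed, while other labels call this bone non-treated, so the extent of surgery in controls is not settled. Nothing in the labels says that the 4 samples of a group are 4 animals, and the p-values cover only the spread among these samples, part of which may be technical.

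TGF-beta is secreted in a latent complex in which a latent TGF-beta binding protein tethers it to the matrix, and bone matrix is a large store of the factor. Once released, the ligand brings the type II receptor, Tgfbr2, together with the type I receptor, Tgfbr1, which phosphorylates Smad2 and Smad3. Activin A is a dimer of Inhba chains that signals through related receptors to the same Smads, and follistatin, the product of Fst, binds activin and keeps it from its receptors.

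Each level below is the log2 processed intensity of a gene's brightest kept probe minus the log2 of that array's 75th percentile, so that 0 is the signal at that percentile. Differences are on the log2 scale and are the first-named group minus the second. They were tested with limma's moderated test on all 12 arrays, two-sided, and adjusted by Benjamini-Hochberg over the 22718 genes, with 0.05 as the threshold. A level depends on the probe, so levels are compared between arrays and not between genes.

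On each array 58.1% to 67.0% of the probes exceeded background clearly. The share was 59.8% to 65.5% in laser, 63.0% to 67.0% in bur and 58.1% to 60.0% in control, so every bur array exceeded every control array. The controls lay in slide column 2 of 1 slide. The 8 treated arrays lay on a different slide, scanned separately, with laser in slide column 2 and bur in slide column 1. Slide and group therefore cannot be told apart against control. Slide column and group cannot be told apart between laser and bur, nor between bur and control. The control arrays also stood apart from each other. On the first principal component, which held 49.5% of the variance, the treated arrays lay between -53.1 and -7.43, control replicate 3 at 6.67, and the other controls at 55.5, 102 and 122. The tissue label was checked against 7 measured genes of osteoblasts and bone matrix, Col1a1 and Bglap among them. All 7 were well above background on every array, and their summed level, on the linear scale relative to the 75th percentile, was 423 to 576 in laser, 371 to 546 in bur and 427 to 610 in control bone. Of the 7, 3 rose in laser and 0 in bur against control. In whole bone, fewer cells of a type and less RNA per cell cannot be told apart.

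The probes that the results turn on are shown here because the probes of 1 gene disagreed. Each is a DNA oligonucleotide of 60 bases, of which the first 30 are printed, 5′ to 3′. The coordinates are those of the whole probe on build rn4 as the array files give them. No rn4 annotation was used, so exon and UTR positions are not assigned. The pair of Tgfbr1 probes disagreed and the 4 Tgfb2 probes varied together, while the Inhba, Ltbp1 and Tgfb1 probes were the only kept ones of their genes.
Tgfbr1 probe A_44_P1086225, chr5:64033678-64033737, plus strand: gtgtgagtattatgttgctaagttactcag
Tgfbr1 probe A_44_P1362182, chr5:64026107-64026166, plus strand: aaagtagtttgtgaacagaagttaaggcca
Tgfb2 probe A_64_P109531, chr13:102816865-102816924, minus strand: tgattttgcagcagcaacagcattgctacc
Tgfb2 probe A_44_P1001517, chr13:102718139-102718198, minus strand: ttcattcattattttcgtgatattactgag
Tgfb2 probe A_43_P12532, chr13:102718952-102719009, minus strand: ttttccctttgtctcggtatacggtaatta
Tgfb2 probe A_44_P246538, chr13:102719362-102719421, minus strand: attgcccttggaaaataaaacaggtgtata
Inhba probe A_64_P030654, chr17:57244565-57244624, minus strand: tatcaaaaaggacattcagaacatgattgt
Ltbp1 probe A_64_P068865, chr6:19943398-19943457, minus strand: aactactgtacaccactgaacaccgctttg
Tgfb1 probe A_42_P522899, chr1:80910123-80910182, plus strand: ctttaggaaggacctgggttggaagtggat
The brighter Tgfbr1 probe, A_44_P1086225, which stood for the gene, starts at base 5325 of the transcript that the files name, and A_44_P1362182 at base 1390. Another Inhba probe, A_43_P11830, was well above background on 0 of 12 arrays and was not used.

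Of the 9 genes, Tgfbr1 and Ltbp1 rose in laser-ablated bone against control, and Tgfbr1 rose in bur-drilled bone against control. That is 2 of 9 called higher in the laser comparison, where 9.26% of all genes were, and 1 of 9 in the bur comparison, where 9.99% of all genes were. None of the 9 was called lower, against 13.0% of all genes in the laser and 16.2% in the bur comparison. Between laser and bur, 0 of the 9 and 0% of all genes were called by limma, and 2.53% of all genes had an unadjusted p under 0.05. The median difference of the 9 was 0.53 in laser against control, beside 0.02 over all genes, and 0.48 in bur against control, beside -9.7e-05 over all genes. The 2 comparisons share the control arrays. Each call was recomputed with other processing: normexp background correction, quantile normalization, the authors' deposited log2 values, no filter or a stricter filter on dim probes, the mean of a gene's probes, only the 2 groups compared, the replicate number as a block, weights for each array, and each array left out. The settings that ended a call stand beside it. The replicate number counted as pairing laser with control arrays. With it as a block in limma, Tgfb1 (adjusted p 0.041) and Tgfbr1 (0.046) were called higher in laser, and Ltbp1 (0.078) was not called.

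**Figure D1:**
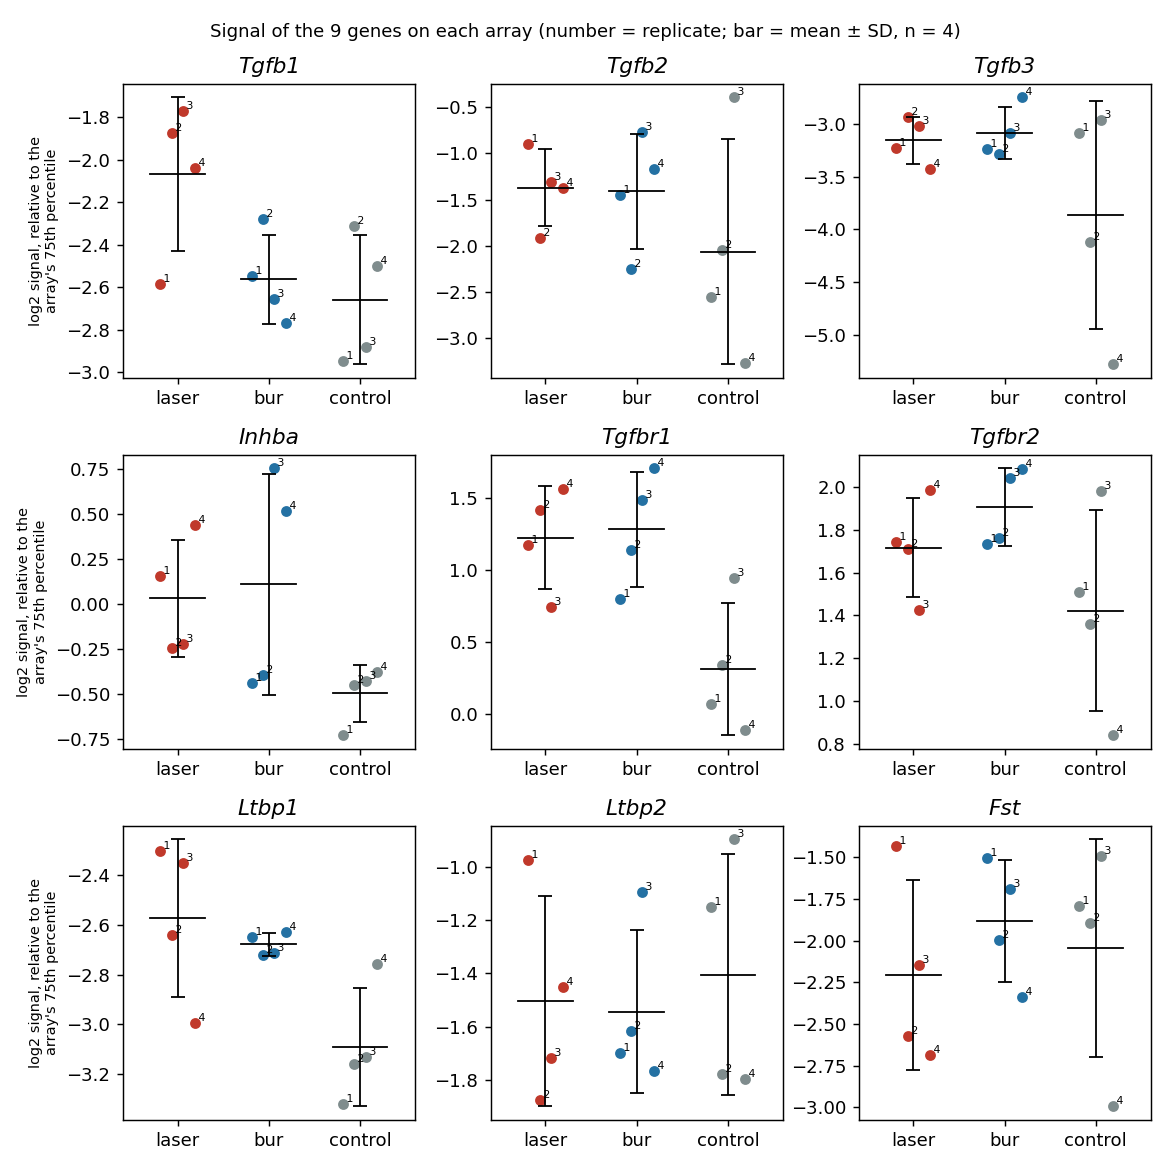
Level of each of the 9 genes on each array (y axis, log2 signal relative to the array's 75th percentile) in laser, bur and control bone, with the replicate number at each point and the group mean and SD as bars (n = 4). The control points of Tgfb2 and Tgfb3 spread over more than those of either treated group. Tgfbr1, on its brighter probe, has the largest mean differences from control, and its control replicate 3 lies among the treated arrays.

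Tgfb1 encodes the TGF-beta isoform that is most abundant in bone matrix. Its level was -2.58, -1.87, -1.77 and -2.04 in laser replicates 1 to 4, -2.55, -2.28, -2.65 and -2.77 in bur replicates 1 to 4, and -2.95, -2.31, -2.88 and -2.50 in control replicates 1 to 4. Laser replicates 2 to 4 lay above every bur and control array, and laser replicate 1 lay among them, so the groups overlapped. The difference was 0.59 (SE 0.21, 95% interval 0.14 to 1.05) in laser against control with a limma adjusted p of 0.060, and 0.10 (SE 0.21, 95% interval -0.36 to 0.55) in bur against control with an adjusted p of 0.76. With the replicate number as a block the adjusted p in laser against control was 0.041, past the threshold, and it was 0.020 without laser replicate 1, where the difference was 0.77. With only genes well above background on all 12 arrays it was 0.049. These were the only settings that passed, so Tgfb1 was called in laser against control in 3 of 21 alternatives. The difference was 0.37 with normexp (adjusted p 0.11) and 0.49 with array weights (adjusted p 0.072). In the authors' deposited table the laser against control change of Tgfb1 was 0.49 with an adjusted p of 0.039.

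Tgfb2 encodes an isoform known in skeletal and neural crest development. Its level was -0.90, -1.91, -1.31 and -1.37 in laser, -1.45, -2.25, -0.77 and -1.17 in bur, and -2.55, -2.05, -0.39 and -3.26 in control replicates 1 to 4. The controls held both the highest and the lowest value of all 12 arrays, replicate 3 and replicate 4, so the groups overlapped. The difference was 0.69 (SE 0.53, 95% interval -0.46 to 1.84) in laser against control and 0.65 (SE 0.53, 95% interval -0.50 to 1.80) in bur against control, with limma adjusted p of 0.35 and 0.37. Without control replicate 3 the differences were 1.25 in laser and 1.21 in bur, past the threshold at adjusted p of 0.028 and 0.030. Without control replicate 4 they were 0.29 and 0.25, with adjusted p of 0.71 and 0.75.

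The 4 kept Tgfb2 probes varied together over the arrays. Their differences ran from 0.69 to 1.23 in laser against control and from 0.65 to 1.01 in bur against control, none past the threshold in a limma fit across 29775 probes. Their pairwise Pearson correlation over the 12 arrays was 0.933 to 0.974, and 0.948 to 0.982 after the group means were taken out; the probes share libraries and arrays, so these values are a description. All 4 had control replicate 3 as the highest control and control replicate 4 as the lowest of the 12 arrays. The highest array was control replicate 3 on A_64_P109531 and A_43_P12532. On A_44_P1001517 and A_44_P246538 it was laser replicate 1. In the authors' deposited table, probe A_43_P12532 of Tgfb2 had a laser against control change of 0.73 with an adjusted p of 0.033, and A_64_P109531 one of 0.62 with an adjusted p of 0.22.

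Tgfb3 encodes the third mammalian TGF-beta isoform. Its level was -3.23, -2.94, -3.02 and -3.43 in laser, -3.24, -3.29, -3.09 and -2.75 in bur, and -3.09, -4.12, -2.97 and -5.28 in control replicates 1 to 4. Control replicates 2 and 4 lay below every treated array, and control replicates 1 and 3 lay among them. The difference was 0.71 (SE 0.42, 95% interval -0.20 to 1.62) in laser and 0.77 (SE 0.42, 95% interval -0.14 to 1.69) in bur against control, with limma adjusted p of 0.23 and 0.18. Without control replicate 4 it was 0.24 and 0.30, and without control replicate 3 it was 1.01 and 1.07, with adjusted p of 0.073 and 0.057. With limma's array weights, which gave each array its own weight, both comparisons passed the threshold, at 0.81 with an adjusted p of 0.049 in laser and 0.80 with an adjusted p of 0.041 in bur.

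Inhba encodes the beta A chain that forms activin A. Its level was 0.16, -0.24, -0.22 and 0.44 in laser, -0.44, -0.39, 0.76 and 0.52 in bur, and -0.73, -0.45, -0.42 and -0.38 in control replicates 1 to 4. Every laser array lay above every control array, as for 19.0% of all genes whose laser and control arrays did not overlap, in either direction. In bur the arrays fell apart into 2 near the controls and 2 above every laser and control array, so bur and control overlapped. The difference was 0.53 (SE 0.27, 95% interval -0.07 to 1.13) in laser and 0.60 (SE 0.27, 95% interval 0.01 to 1.20) in bur against control, with limma adjusted p of 0.18 and 0.12. In the authors' deposited table the change of Inhba was 0.59 in laser and 0.64 in bur against control, with adjusted p of 0.062 and 0.044. Inhba was called in 0 of 21 alternatives in laser and in 0 of 21 in bur against control.

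Tgfbr1, the type I receptor kinase that passes the TGF-beta signal to the Smads, rose 1.88-fold in laser and 1.96-fold in bur against control. Its level was 1.17, 1.41, 0.75 and 1.56 in laser, 0.80, 1.14, 1.49 and 1.71 in bur, and 0.07, 0.34, 0.94 and -0.11 in control replicates 1 to 4. Control replicates 1, 2 and 4 lay below every treated array, and control replicate 3 lay above laser replicate 3 and bur replicate 1. The difference was 0.91 (SE 0.27, 95% interval 0.32 to 1.50) in laser with a limma adjusted p of 0.036, and 0.97 (SE 0.27, 95% interval 0.38 to 1.56) in bur with an adjusted p of 0.025. The laser call was lost on leaving out laser replicate 1, 2 or 4 or control replicate 1, 2 or 4, where the difference was 0.77 to 0.93 and the adjusted p 0.051 to 0.099. The bur call was lost on leaving out bur replicate 3 or 4 or control replicate 1 or 4, where the difference was 0.83 to 0.90 and the adjusted p 0.064 to 0.070. With the authors' deposited log2 values both calls were lost, at 0.58 in laser (adjusted p 0.062) and 0.56 in bur (adjusted p 0.067). The laser call was also lost with no filter (adjusted p 0.060) and with only the 2 groups compared (0.063). In the authors' deposited table the adjusted p of Tgfbr1 was 0.054 in laser and 0.059 in bur.

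The other Tgfbr1 probe, A_44_P1362182, did not show this rise. Its level was -3.54, -3.73, -3.49 and -3.18 in laser, -4.21, -3.85, -3.42 and -2.98 in bur, and -4.03, -3.53, -3.07 and -4.03 in control replicates 1 to 4, with the groups overlapping. The difference was 0.18 (SE 0.28) in laser and 0.05 (SE 0.28) in bur against control, with adjusted p of 0.67 and 0.91 in the limma fit across probes. After group means were taken out, the levels of the pair correlated over the 12 arrays with a Pearson r of 0.839, so that they varied together within groups. With the mean of both probes in place of the brighter one, the differences of Tgfbr1 were 0.55 in laser and 0.51 in bur, with adjusted p of 0.15 and 0.17. The rise of Tgfbr1 is therefore a result of 1 of its 2 probes.

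**Figure D2:**
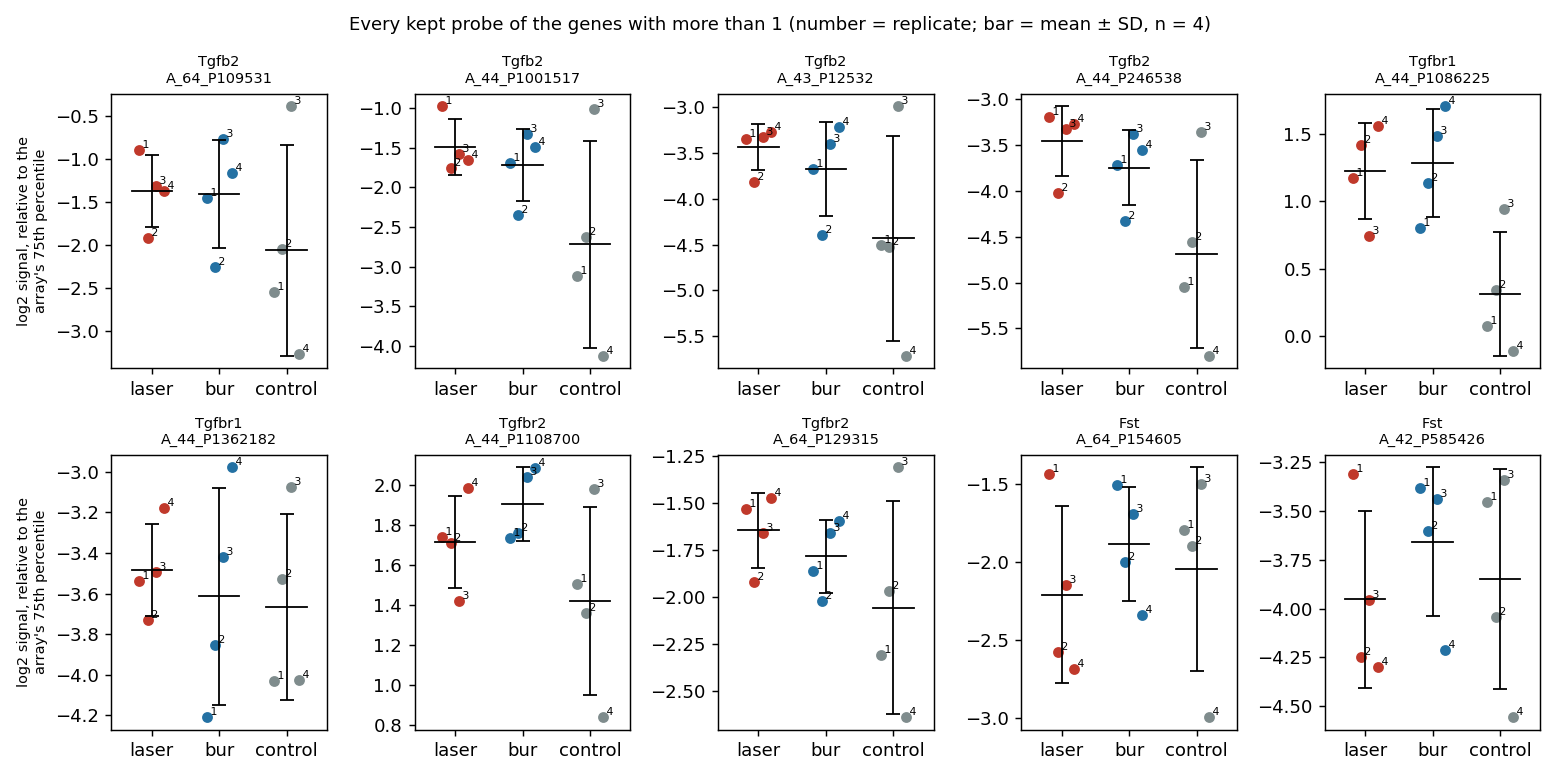
Level on each array (y axis, log2 signal relative to the array's 75th percentile) of every kept probe of Tgfb2, Tgfbr1, Tgfbr2 and Fst, in laser, bur and control bone, with replicate numbers and the group mean and SD (n = 4). The 4 Tgfb2 probes vary together over the arrays, while the Tgfbr1 probes differ in the difference between treated and control bone.

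Tgfbr2 encodes the type II receptor, which binds the ligand first. Its level was 1.74, 1.71, 1.42 and 1.99 in laser, 1.73, 1.76, 2.04 and 2.08 in bur, and 1.51, 1.36, 1.98 and 0.84 in control replicates 1 to 4. Control replicate 3 lay among the treated arrays and control replicate 4 below all others. The difference was 0.29 (SE 0.22, 95% interval -0.19 to 0.78) in laser and 0.48 (SE 0.22, 95% interval 0.00 to 0.96) in bur against control, with limma adjusted p of 0.34 and 0.12. Without control replicate 3 the bur difference was 0.67 with an adjusted p of 0.022, and without control replicate 4 it was 0.29 with an adjusted p of 0.30. The other kept Tgfbr2 probe gave 0.41 in laser and 0.27 in bur, with adjusted p of 0.24 and 0.43.

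Ltbp1, which ties latent TGF-beta to the matrix, rose 1.43-fold in laser against control. Its level was -2.30, -2.64, -2.35 and -3.00 in laser, -2.65, -2.72, -2.71 and -2.63 in bur, and -3.32, -3.16, -3.13 and -2.76 in control replicates 1 to 4. Laser replicate 4 lay below control replicate 4, so laser and control overlapped, while every bur array lay above every control array, as in the 25.3% of all genes whose bur and control arrays did not overlap. The laser difference was 0.52 (SE 0.17, 95% interval 0.14 to 0.89) with a limma adjusted p of 0.049. The bur difference was 0.41 (SE 0.17, 95% interval 0.04 to 0.79) with an adjusted p of 0.093. With the replicate block the laser call was lost, at an adjusted p of 0.078, and it was lost on leaving out any 1 array other than laser replicate 4 or control replicate 4, with differences of 0.43 to 0.54 and adjusted p of 0.061 to 0.13. It was lost with normexp (0.30, adjusted p 0.11), with no filter (0.088), with only the 2 groups compared (0.11) and with the mean of probes (0.052), so the laser call of Ltbp1 held in 6 of 21 alternatives.

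Ltbp1 in bur against control passed the threshold with quantile normalization (0.48, adjusted p 0.047), with the authors' deposited log2 values (0.42, adjusted p 0.032) and with array weights (0.47, adjusted p 0.023). In the authors' deposited table the change of Ltbp1 was 0.45 in laser against control and 0.42 in bur against control, with adjusted p of 0.043 and 0.052. The 4 bur arrays of Ltbp1 had an SD of 0.05, lower than that of all but 1.21% of genes in bur.

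Ltbp2 encodes a matrix protein of the same family that is known not to bind latent TGF-beta. Its level was -0.98, -1.88, -1.72 and -1.45 in laser, -1.70, -1.62, -1.09 and -1.77 in bur, and -1.15, -1.78, -0.89 and -1.80 in control replicates 1 to 4. The 3 groups covered much the same range. The difference was -0.10 (SE 0.26, 95% interval -0.67 to 0.47) in laser and -0.14 (SE 0.26, 95% interval -0.71 to 0.43) in bur against control, with limma adjusted p of 0.80 and 0.72. Neither interval reached a difference of 1 unit in either direction.

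Fst encodes follistatin, which neutralises activin. Its level was -1.43, -2.57, -2.14 and -2.68 in laser, -1.51, -2.00, -1.69 and -2.34 in bur, and -1.79, -1.90, -1.50 and -2.99 in control replicates 1 to 4. The groups overlapped, with control replicate 4 the lowest array and laser replicate 1 the highest. The difference was -0.16 (SE 0.35, 95% interval -0.93 to 0.61) in laser and 0.16 (SE 0.35, 95% interval -0.61 to 0.93) in bur against control, with limma adjusted p of 0.76 in both. The other kept Fst probe gave -0.10 and 0.19, and the pair correlated over the 12 arrays with a Pearson r of 0.950. The sign of the laser difference turned without control replicate 3, to 0.02, and that of the bur difference without control replicate 4, to -0.15.

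**Figure D3:**
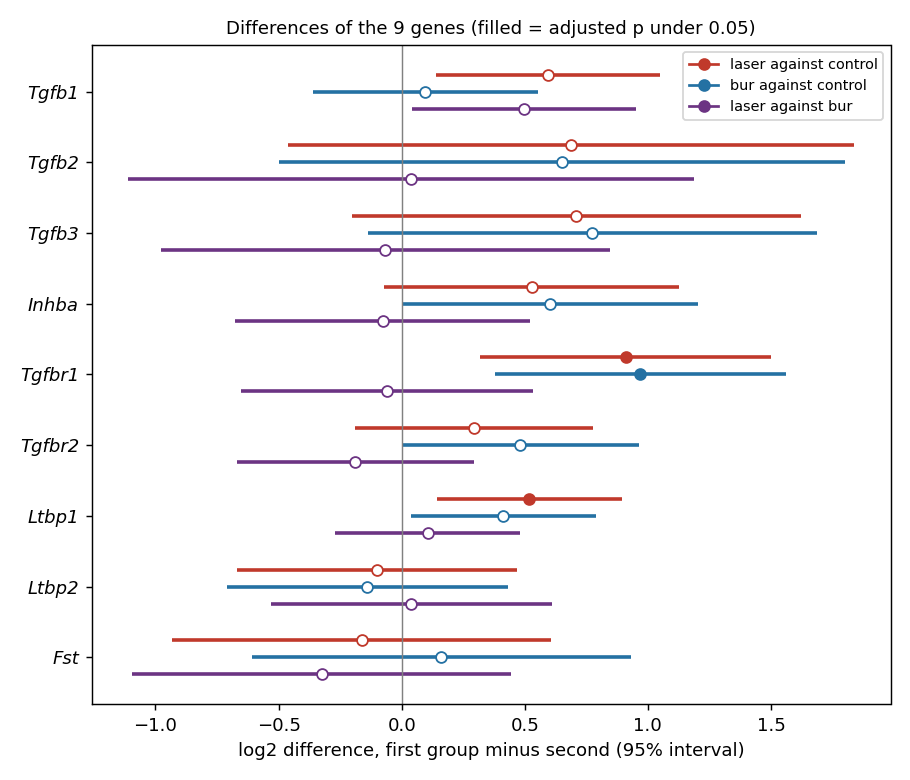
Log2 difference (x axis, first group minus second, with the 95% interval as a line) of each of the 9 genes in laser against control, bur against control and laser against bur. Filled points passed an adjusted p of 0.05 in the fit without a replicate block: Tgfbr1 in both comparisons with control and Ltbp1 in laser against control.

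Laser and bur were compared directly to ask whether the means of removing bone made a difference. The largest difference among the 9 genes was that of Tgfb1, at 0.50 (SE 0.21, 95% interval 0.04 to 0.95) with an unadjusted p of 0.035 and a limma adjusted p of 0.9998. Laser replicates 2 to 4 of Tgfb1 lay above every bur array, and laser replicate 1 lay below bur replicates 1 and 2. The other 8 differences ran from -0.32 for Fst to 0.11 for Ltbp1, none past the threshold. The 95% interval was -0.65 to 0.53 for Tgfbr1 and -0.27 to 0.48 for Ltbp1, and -1.11 to 1.19 for Tgfb2, so a difference of 1 unit between laser and bur was within the interval for Tgfb2 and outside it for the other 2. The median of the 9 was -0.06, beside 0.02 over all genes.

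Part of the spread of these genes lay among the control arrays. Control replicate 3 was the highest control for 6 of the 9 genes and for 33.4% of all genes, and control replicate 4 was the lowest for 6 of the 9 and for 25.6% of all genes. The other genes differed. Replicate 4 was the highest control for 2 of the 9, Inhba and Ltbp1, and for 36.3% of all genes. For Tgfb1 the highest control was replicate 2 and the lowest replicate 1. The control SD was the largest of the 3 groups for 6 of the 9 genes and for 53.3% of all genes. For Tgfb2 the control SD was 1.22, above that of 96.9% of genes, and for Tgfb3 it was 1.08, above that of 94.9%.

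Markers of other cell types also differed between the groups and among the control arrays. The summed level of 6 fibroblast markers was 12.5 to 17.0 in laser, 11.9 to 19.7 in bur and 3.66 to 12.1 in control bone, with control replicate 3 the highest control at 12.1 and control replicate 4 the lowest at 3.66. Of the 6, 2 rose in laser and 4 in bur against control. The summed level of 8 erythroid markers was 17.1 to 63.7 in laser, 10.2 to 56.5 in bur and 55.2 to 284 in control bone, with control replicate 3 the lowest control and control replicate 4 the highest, and all 8 fell in both comparisons. The 7 macrophage and monocyte markers summed to 12.5 to 20.9 in laser, 12.8 to 24.2 in bur and 7.21 to 12.8 in control bone, and 2 of them rose in laser and 4 in bur. No marker of these 3 lists was at background, and their part in the results of the 9 genes was not tested.

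**Figure D4:**
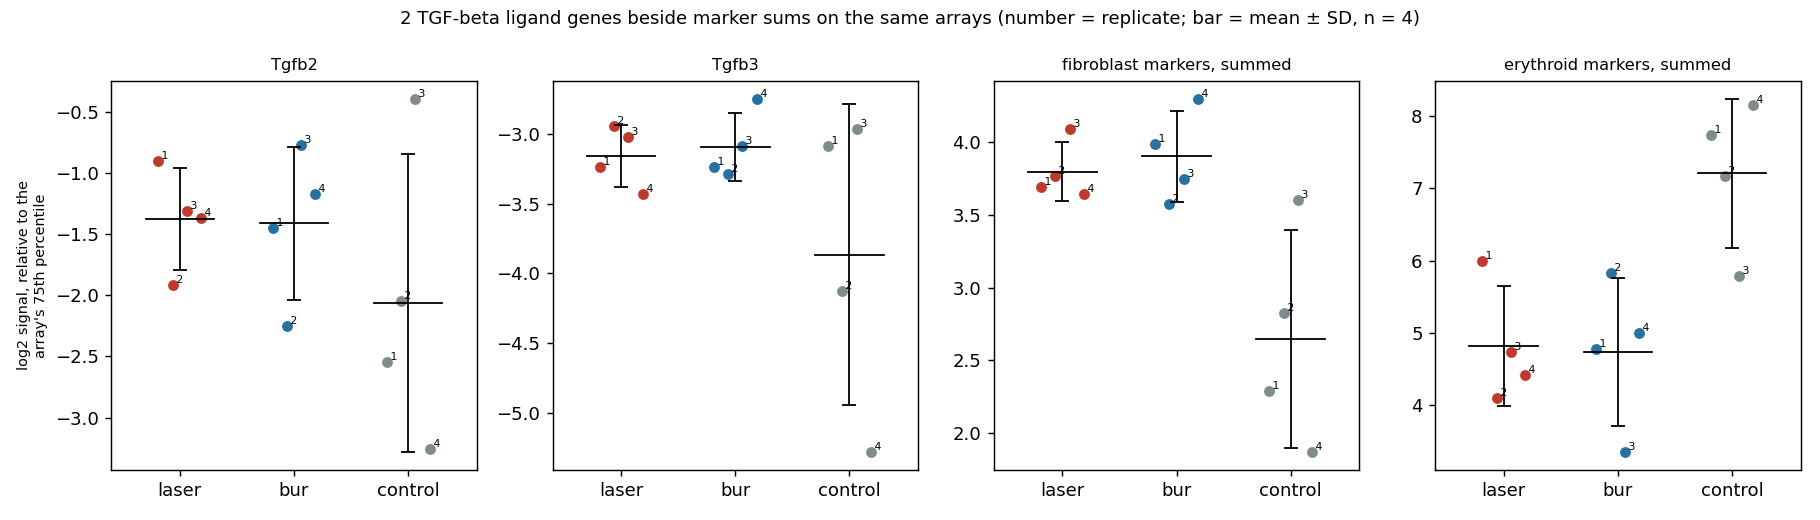
Tgfb2 and Tgfb3 levels beside the summed fibroblast and erythroid markers on the same arrays (y axes, log2 relative to the array's 75th percentile), in laser, bur and control bone, with replicate numbers and the group mean and SD (n = 4). Control replicate 4 is the lowest control for both ligand genes and the fibroblast sum and the highest for the erythroid sum.

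Neutrophil and osteocyte markers also differed between the groups. The 7 measured neutrophil markers summed to 49.8 to 261 in laser, 119 to 204 in bur and 195 to 549 in control bone, and 4 of them fell in laser and 3 in bur. The 4 measured osteocyte markers summed to 18.5 to 59.7 in laser, 18.8 to 44.7 in bur and 10.9 to 17.1 in control bone, and 3 of them rose in laser and 0 in bur. Their part in the results of the 9 genes was not tested either.

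For each ligand gene, the 2 genes with a symbol whose levels correlated best with it over the 12 arrays were looked up among 14691 genes, as a description of arrays that share slides and tissue make-up. They were Rab11fip4 (r = 0.913) and Slc39a6 (r = 0.879) for Tgfb1, Gria3 (r = 0.955) and Syde1 (r = 0.946) for Tgfb2, Dkk3 (r = 0.969) and Car13 (r = 0.952) for Tgfb3, and Hspa9 (r = 0.957) and Ppm1j (r = 0.906) for Inhba. With group means taken out, these correlations were 0.795 to 0.958. Among the 9 genes themselves, the within-group correlation was 0.862 between the receptors Tgfbr1 and Tgfbr2, 0.605 between Tgfb2 and Tgfb3, and -0.491 between Tgfb1 and Tgfb2.

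The regions upstream of the start sites were read for the pair of genes that passed the threshold. RefSeq sequences of assembly GRCr8 were found for 8 of the 9 genes, and the 250 bases before the start of Tgfbr1 and of Ltbp1 are printed 5′ to 3′ on the gene's strand. Both strands were searched for 5 motifs, and capitals mark a match. The TATA box was searched as TATAAA and the GC box as GGGCGG. The cAMP response element was searched as TGACGTCA and the AP-1 site as TGACTCA. A palindromic Smad site was searched as GTCTAGAC. No 2 of the marked matches overlap.
Tgfbr1, chr5:66449148-66449397, plus strand: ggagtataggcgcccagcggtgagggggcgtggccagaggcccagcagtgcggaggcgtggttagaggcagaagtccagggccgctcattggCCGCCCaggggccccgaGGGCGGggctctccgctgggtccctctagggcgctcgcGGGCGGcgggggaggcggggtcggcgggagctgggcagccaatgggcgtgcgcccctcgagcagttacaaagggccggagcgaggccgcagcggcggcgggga
Ltbp1, chr6:26177302-26177551, minus strand: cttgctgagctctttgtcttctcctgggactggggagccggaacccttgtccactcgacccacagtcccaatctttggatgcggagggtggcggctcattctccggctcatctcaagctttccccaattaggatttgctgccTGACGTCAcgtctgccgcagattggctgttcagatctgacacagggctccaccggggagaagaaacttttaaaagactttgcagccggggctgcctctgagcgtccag
The Tgfbr1 region held 3 GC boxes, a motif present in 30.5% of 33469 such regions, and its GC content was 75.6%. The Ltbp1 region held 1 cAMP response element, present in 1.59% of regions. Of the other 6 genes, Inhba held a TATA box (12.9% of regions) and Tgfbr2 and Ltbp2 a GC box each. The AP-1 letters (4.05% of regions) and the Smad letters (0.173%) were in none of the 8 windows. A match is a description of these letters only.

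The wider pathway was read in 53 further genes in 7 lists, 49 of them measured. In laser against control 13 rose and 2 fell, beside 9.26% and 13.0% of all genes. In bur against control 9 rose and 4 fell, beside 9.99% and 16.2% of all genes. The counts of the lists below and of the marker sets were not tested against these shares. The rises counted include Acvr2b in both comparisons and Itgb8 in laser. Each of the pair was well above background on every treated array and on 1 of 4 control arrays, and so passed the filter through the treated arrays. The median difference of the 49 was 0.65 in laser and 0.47 in bur against control. Between laser and bur 0 of the 49 were called, and the genes with the smallest p in their lists differed by 0.19 (Ltbp3), 0.29 (Inha), 0.46 (Acvr1b), 0.37 (Zfyve9), 0.25 (Smad7), 0.69 (Bambi) and 0.14 (Col1a1). For Acvr1b, an activin type I receptor, every laser array lay above every bur array, as in the 2.15% of all genes whose laser and bur arrays did not overlap. Against control, laser arrays did not overlap for 19.0% of all genes and bur arrays did not for 25.3%, in either direction. These shares go with every mention below of arrays that did not overlap with control. Inhbc and Inhbe did not pass the filter on dim probes, and the array design lists Ccn1 and Ccn2 under their older names Cyr61 and Ctgf.

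**Figure D5:**
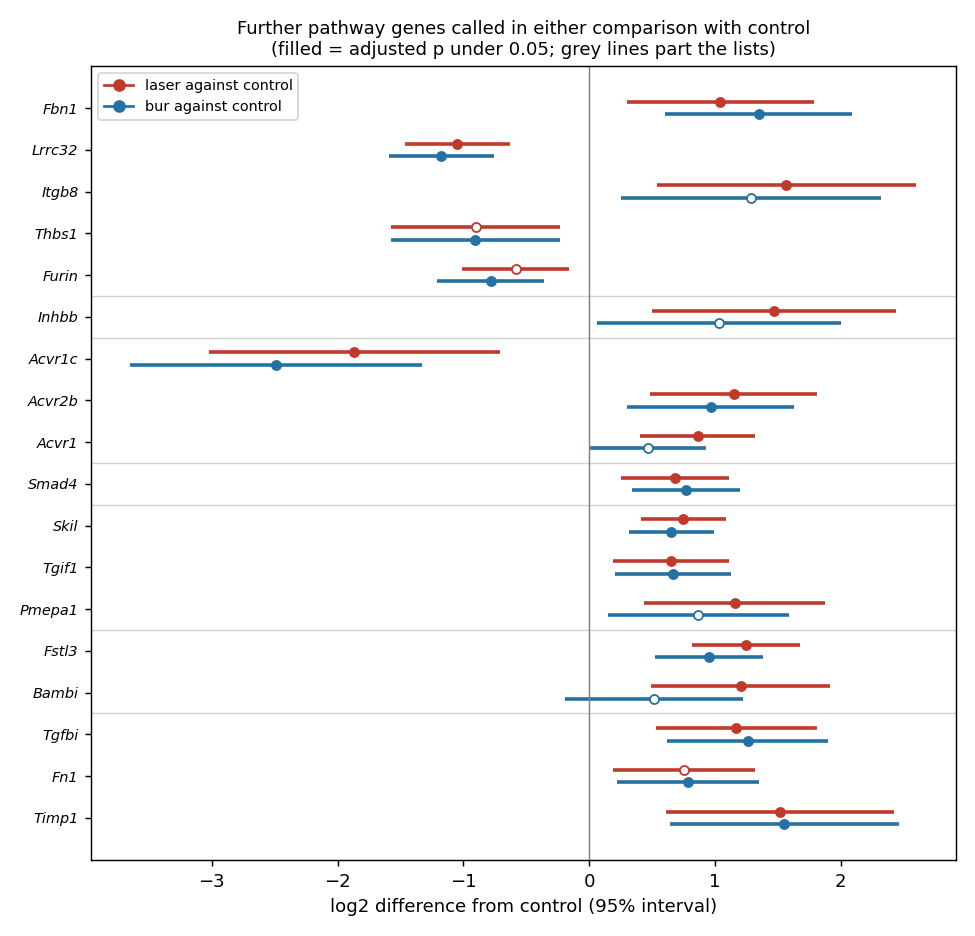
Log2 difference from control (x axis, with the 95% interval as a line) of the further pathway genes that passed the threshold in either comparison, laser above bur for each gene, with grey lines between the lists. Filled points passed an adjusted p of 0.05, among them the falls of Lrrc32 and Acvr1c and the rises of Tgfbi and Timp1.

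Of 11 genes that store or activate latent TGF-beta, 2 rose and 1 fell in laser (2 and 3 with the replicate block), and 1 rose and 3 fell in bur. Lrrc32, a membrane protein known for holding latent TGF-beta on platelets and regulatory T cells, fell by 1.05 in laser (limma adjusted p 0.0086) and fell by 1.17 in bur (adjusted p 0.0039). Its level was -0.01, -0.27, -0.37 and -0.04 in laser, -0.16, -0.35, -0.34 and -0.36 in bur, and 1.34, 0.60, 0.45 and 1.11 in control replicates 1 to 4, with no overlap between treated and control bone. The fall of Lrrc32 passed the threshold in both comparisons under all 21 alternatives run. The 6 measured megakaryocyte and platelet markers summed to 6.84 to 10.9 in laser, 5.36 to 10.4 in bur and 8.95 to 31.8 in control bone, and 1 of them fell in laser and 4 in bur. Their part in the fall of Lrrc32 was not tested.

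Fbn1, the fibrillin on which latent complexes are laid down, rose by 1.04 in laser (adjusted p 0.047) and by 1.35 in bur (adjusted p 0.018). The laser call of Fbn1 was lost on leaving out any 1 array other than control replicate 3, with differences of 0.79 to 1.18, and the bur call without control replicate 1, at 1.12. The laser call of Fbn1 was also lost with normexp (0.80), no filter and only the 2 groups compared, and held in 7 of 21 alternatives. Itgb8, a chain of an integrin that activates latent TGF-beta, had a laser difference of 1.57 (limma adjusted p 0.037) and was well above background on 1 of 4 control arrays. The Itgb8 call was lost with the replicate block (adjusted p 0.058), on leaving out any laser array or control replicate 1, 2 or 4 (1.23 to 1.75), and under normexp background correction, where the difference was -0.03. It was lost with the authors' deposited log2 values (0.27), no filter and only the 2 groups compared, and held in 8 of 20 alternatives.

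Thbs1, a matrix protein that can activate the latent complex, fell by 0.90 in bur (limma adjusted p 0.048), and its laser difference was -0.90 (adjusted p 0.054, or 0.026 with the replicate block). Furin, the protease that cleaves TGF-beta precursors, fell by 0.78 in bur (adjusted p 0.017), and its laser difference was -0.58 (adjusted p 0.051, or 0.046 with the block). The bur call of Furin was lost without control replicate 1, at -0.72. That of Thbs1 was lost on leaving out laser replicate 2 or 3, bur replicate 2, 3 or 4, or control replicate 1, 2 or 4, at -0.97 to -0.70. It was lost with the mean of probes (-0.55), array weights (-0.68), quantile normalization (-0.85), no filter and only the 2 groups compared, and held in 8 of 21 alternatives.

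Among the other activin and inhibin chains, Inhbb, which forms activin B, rose by 1.47 in laser against control (limma adjusted p 0.037). Its level was -2.94, -3.56, -1.78 and -2.22 in laser, -3.67, -3.40, -2.18 and -2.99 in bur, and -4.01, -4.12, -3.35 and -4.90 in control replicates 1 to 4. Laser replicate 2 lay below control replicate 3, and the other laser arrays lay above every control array. The bur difference was 1.03 (adjusted p 0.10), and it passed the threshold without control replicate 3, at 1.28. The laser call was lost on leaving out laser replicate 3 or 4 or control replicate 1, 2 or 4, at 1.19 to 1.50. It was also lost with normexp (0.77, adjusted p 0.085), no filter and only the 2 groups compared.

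Among 8 other receptors, 2 rose and 1 fell in laser, and 1 rose and 1 fell in bur. Acvr1c, a type I receptor also known as ALK7 and prominent in fat, fell by 1.87 in laser (limma adjusted p 0.031) and fell by 2.49 in bur (adjusted p 0.0099). Of 5 measured adipocyte markers, 4 fell in laser and 4 in bur. Their summed level, on the linear scale, was 1.34 to 3.46 in laser, 1.58 to 3.83 in bur and 2.37 to 4.40 in control bone. The median log2 difference of the 5 was -3.07 in laser and -3.17 in bur against control. Lep was well above background on 1 of 4 laser and 1 of 4 bur arrays, and Cidec on 0 of 4 and 1 of 4. Pck1 was well above background on 0 of the 8 treated arrays and on all 4 control arrays, and Adipoq and Fabp4 on every array. The part of these markers in the fall of Acvr1c was not tested. The laser call of Acvr1c was lost on leaving out laser replicate 2, 3 or 4 or control replicate 1 or 4, at -2.03 to -1.38. It was lost with only the 2 groups compared, and with normexp the differences of Acvr1c were -1.17 in laser and -1.56 in bur, both past the threshold.

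Acvr1, a type I receptor for bone morphogenetic proteins and activins, rose by 0.86 in laser (limma adjusted p 0.020), and every laser array lay above every control array. The Acvr1 call was lost without laser replicate 3 or control replicate 1 or 4, at 0.71 to 0.83, and with only the 2 groups compared. Acvr2b, an activin type II receptor, rose by 1.15 in laser (adjusted p 0.025) and 0.97 in bur (adjusted p 0.037) and was well above background on 1 of 4 control arrays. The laser call of Acvr2b was lost on leaving out laser replicate 2 or 3 or control replicate 1, 2 or 4 (0.92 to 1.24), and the bur call on leaving out any bur array or control replicate 1, 2 or 4 (0.74 to 1.04). Under normexp the Acvr2b differences were 0.07 in laser and -0.20 in bur and with the deposited log2 values 0.36 and 0.22, and these settings and the fit of only the 2 groups compared ended both calls.

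Of 4 Smad transducers 1 rose in each comparison. Smad4, the shared partner of the receptor-activated Smads, rose by 0.69 in laser (limma adjusted p 0.032) and by 0.77 in bur (adjusted p 0.018), with every treated array above every control array. The laser call of Smad4 was lost on leaving out laser replicate 2 or 3 or control replicate 1, 2 or 4, at 0.50 to 0.74, with no filter and with only the 2 groups compared. With normexp both Smad4 calls were lost, at 0.27 in laser (adjusted p 0.10) and 0.21 in bur (adjusted p 0.13), and with the deposited log2 values the bur difference was 0.45, past the threshold. Smad2 differed from control by -0.07 in laser and -0.04 in bur, and Smad3 by 0.08 and -0.07, all at adjusted p over 0.05.

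Of 9 intracellular inhibitors 3 rose in laser and 2 in bur. Skil, which encodes the co-repressor SnoN and is itself a TGF-beta target, rose by 0.75 in laser (limma adjusted p 0.014) and by 0.65 in bur (adjusted p 0.014), with no overlap with control. With the mean of probes the bur call of Skil was lost, at 0.49 (adjusted p 0.084). Tgif1, another co-repressor of Smads, rose by 0.65 in laser (adjusted p 0.046) and by 0.66 in bur (adjusted p 0.039). Pmepa1, which sequesters receptor-activated Smads, rose by 1.16 in laser (adjusted p 0.032), and its bur difference was 0.87 (adjusted p 0.070). Smad7, the inhibitory Smad, differed from control by 0.11 in laser and -0.14 in bur, at adjusted p of 0.60 and 0.51.

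Some of these calls of inhibitors were lost under alternatives. Pmepa1 was lost without laser replicate 2, 3 or 4 or control replicate 1 or 4, at 0.91 to 1.25, with no filter and with only the 2 groups compared. Tgif1 in laser was lost without laser replicate 2, 3 or 4, bur replicate 2 or 4, or control replicate 1 or 4, at 0.51 to 0.65, with array weights (0.52), with no filter and with only the 2 groups compared. Tgif1 in bur was lost without laser replicate 3, bur replicate 2, 3 or 4, or control replicate 1 or 4, at 0.52 to 0.71, with array weights (0.46) and with only the 2 groups compared.

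Of 6 extracellular and decoy inhibitors 2 rose in laser and 1 in bur, and all 6 differences were positive in both comparisons. Fstl3, a follistatin-like protein that also binds activin, rose by 1.25 in laser (limma adjusted p 0.0047) and by 0.95 in bur (adjusted p 0.0090). Its level was -3.22, -2.95, -3.17 and -3.46 in laser, -3.73, -3.66, -3.13 and -3.46 in bur, and -4.54, -4.46, -3.98 and -4.80 in control replicates 1 to 4, with every treated array above every control array. With normexp Fstl3 differed by 0.55 in laser, past the threshold, and by 0.24 in bur (adjusted p 0.13), where the call was lost. Bambi, a decoy receptor without a kinase domain, rose by 1.20 in laser (adjusted p 0.027) with no overlap with control, and its bur difference was 0.51 (adjusted p 0.25). The Bambi call was lost without laser replicate 2, 3 or 4 or control replicate 1 or 4, at 1.07 to 1.27. Between laser and bur, Bambi differed by 0.69 at a limma adjusted p of 0.9998, so a difference between the treatments was not shown.

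Of 9 measured genes commonly used as TGF-beta targets 2 rose in laser and 3 in bur. Tgfbi, a matrix protein named for its induction by TGF-beta, rose by 1.17 in laser (limma adjusted p 0.022) and by 1.26 in bur (adjusted p 0.013), with every treated array above every control array. Timp1, an inhibitor of matrix metalloproteinases, rose by 1.52 in laser (adjusted p 0.028) and by 1.55 in bur (adjusted p 0.021). Fn1, the matrix protein fibronectin, rose by 0.78 in bur (adjusted p 0.044), and its laser difference was 0.75 (adjusted p 0.055). Col1a1, the main collagen chain of bone, differed by -0.01 in laser and -0.15 in bur, at adjusted p of 0.97 and 0.55. The laser call of Tgfbi was lost without laser replicate 2 or 3 or control replicate 1 or 4 (0.96 to 1.12), and that of Timp1 without laser replicate 2, 3 or 4 or control replicate 1 or 4 (1.17 to 1.56). The bur call of Timp1 was lost without bur replicate 3 or 4 or control replicate 1 (1.30 to 1.55), and that of Fn1 on leaving out any 1 array other than control replicate 2 or 3 (0.57 to 0.87). The laser calls of Tgfbi and Timp1 were lost with only the 2 groups compared. The call of Fn1 was lost with array weights (0.50), quantile normalization (0.74), the deposited log2 values (0.72), no filter and only the 2 groups compared, and held in 6 of 21 alternatives.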

How the data were processed

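RNA from 12 samples of rat calvaria, 4 per group by the sample labels, was measured on one-colour (Cy3) Agilent arrays from 200 ng of total RNA. The deposited scanner files hold spot intensity on a linear scale, made with Agilent Feature Extraction 11.0.1.1 per the file headers, with probe positions on rn4. A second deposited file holds log2 values, named as quantile-normalized, of whose 24920 lines the first 23269 were used. Further deposited tables give log2 changes with p-values; the sources used here do not state how either was made.

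Here the log2 of the processed intensity was taken minus that of each array's 75th percentile, taken over 58717 spots that were not controls. Spots flagged as outliers were left out and spots of a probe averaged. No spot was saturated. Probes well above background on at least 4 of 12 arrays were kept (29775 of 45598), and the brightest kept probe stood for each of 22718 gene names. Differences were tested with limma 3.58.1 (R 4.3.3, statmod 1.5.0; lmFit and eBayes, a mean per group), Benjamini-Hochberg over all genes. The scripts were tested on simulated data. The number of arrays limits the precision.

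Same-numbered arrays deviated from their group means together in laser and control (r 0.126 to 0.336) and in laser and bur (0.158 to 0.341), and less so in bur and control (-0.050 to 0.284). Between arrays of different number the highest r was 0.125 in laser and control, 0.143 in laser and bur, and 0.321 in bur and control. The numbers are also slide rows. By the r of same-numbered arrays alone, they counted as pairing laser arrays with control and with bur arrays, but not bur arrays with controls. The main fit left this pairing out, and the fit with the block is given as an alternative.

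All 9 genes are named in every comparison. From each further list, up to 4 genes past the threshold with the largest change in a comparison are named, or the one with the smallest p, as values only; the non-significant values of called genes in the other comparison, and Smad2, Smad3, Smad7 and Col1a1, were added after values were seen. For each ligand gene, the 2 best-correlated genes are named. 1 gene of the pathway lists is not reported here, and it is left out of the counts. The members, the pathway and marker lists and these rules were chosen with earlier results of these data known. Alternatives covered background correction, normalization, the deposited log2 values, the filter, the probe rule, the arrays fitted, the replicate block, array weights and each array left out.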

Additional observations from a re-analysis of the deposited data

Results flagged for a closer look

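In 5 of 99 groups of 4 arrays, over the 9 genes and the named pathway genes, Dixon's gap test set 1 array apart from the others of its group, and chance flags about 1 in 20. None was of the 9 genes. The bur value of Lrrc32 in replicate 1 was -0.16, above the other bur arrays at -0.36 to -0.34. The bur value of Zfyve9 in replicate 1 was -6.92, below the others at -6.34 to -6.23. The laser value of Tgif1 in replicate 1 was -0.73, below the others at -0.24 to -0.23. The laser value of Col1a1 in replicate 2 was 7.46, below the others at 7.85 to 7.91. The bur value of Fn1 in replicate 3 was 4.28, above the others at 3.44 to 3.56.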

How the results depend on the processing

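Over the gene calls and settings run, a call was kept 470 times, lost 178 times and turned in sign 2 times, and the report names the settings beside each call. The laser calls of Ltbp1, Fbn1 and Itgb8 and the bur calls of Thbs1 and Fn1 were lost in most settings. Differences past no threshold stayed so with their sign 643 times, passed it 13 times and turned in sign 31 times. The cause of the changes below was not tested. Genes called higher in laser against control numbered 2103, but 1188 with normexp, 1199 without a detection filter, 651 (and 1107 lower, against 2958) when only the 2 groups compared were fitted and 3534 with array weights. In bur against control, 2270 were called higher and 3678 lower, but 6286 lower with normexp, 5750 lower without a filter, 1483 higher with only the 2 groups and 3631 higher with array weights. In laser against bur, 1 gene was called without a filter. Leaving out single arrays gave 449 to 3861 higher and 796 to 4133 lower in laser, and 878 to 3794 higher and 1911 to 4603 lower in bur against control; the extremes came without control replicates 1 and 3. Normexp moved the median difference of all genes by -0.10 in laser, -0.24 in bur and 0.11 in laser against bur, and 8, 9 and 2 of the 9 genes lay above the moved median.

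Normexp turned 2 called differences, Itgb8 in laser against control (1.57) to -0.027 and Acvr2b in bur against control (0.97) to -0.20. The other turned signs were of differences that had not passed the threshold. With normexp, Tgfb1 in bur against control was -0.041 and Tgfb3 in laser against bur 0.047. With array weights, Tgfb1 in bur against control was -0.070, Tgfb3 in laser against bur 0.0098, and Ltbp2 0.013 in laser against control, 0.051 in bur against control and -0.037 in laser against bur. In laser against bur, Col1a1 was -0.081 with quantile normalization, Tgfbr1 was 0.024 with the deposited log2 values, 0.036 as the mean of probes and 0.13 on its other probe, and Tgfbr2 was 0.14 on its other probe. Leaving out single arrays gave -0.48 to 0.020 for Fst and -0.28 to 0.070 for Ltbp2 in laser against control, and -0.15 to 0.34 for Fst and -0.29 to 0.030 for Ltbp2 in bur against control. In laser against bur it gave -0.24 to 0.25 for Tgfb2, -0.14 to 0.048 for Tgfb3, -0.22 to 0.10 for Tgfbr1, -0.26 to 0.14 for Inhba and -0.14 to 0.19 for Ltbp2.

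The replicate block kept the Tgfbr1 calls (adjusted p 0.046 in laser and 0.034 in bur), ended those of Ltbp1 (0.078) and Itgb8 (0.058) in laser, and added Tgfb1 (0.041), Thbs1 (0.026) and Furin (0.046) in laser. In bur, where numbers did not pair the arrays, it added Inhbb (0.037) and Acvr1b (0.031). It changed no other call of the 9 genes or of the named pathway genes in the comparisons with control. Probes near background, as Itgb8 and Acvr2b in controls, limit the size of a difference.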
